A study of Homo sapiens with 18 samples.

Results

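BEAS-2B cells that breathed complete wood smoke are described here against BEAS-2B cells that breathed the same kind of smoke after filtration. BEAS-2B is an immortalised line of human bronchial epithelium, and its source here was a commercial cell collection. The members were the 6 of 18 libraries whose labels give this line and either wood smoke as complete aerosol (3 libraries) or filtered smoke (3 libraries), compared within sample numbers 1 to 3. The genotype is given as wild type in all groups, so the exposure is the only labelled difference. In each group 500000 cells were plated on 24 mm porous inserts 24 h ahead, and one face of the cell layer then met the aerosol over 4 h (flow 100 mL/min, humidity 85%), with buffered medium below. The 3 BEAS-2B libraries exposed to clean air served as the level without smoke, and complete and filtered libraries of A549, an alveolar carcinoma line that received 400000 cells per insert, served for a test between lines. The labels name no separate cultures or exposure days, so the p-values rest on the variation among these samples, part or all of which may be technical.

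Wood smoke holds particles and a gas phase. A filter holds back the particles, while gases such as small aldehydes pass through. Particles of incomplete combustion carry polycyclic aromatic hydrocarbons, which bind the aryl hydrocarbon receptor (AHR) in the cytoplasm. The bound receptor enters the nucleus, pairs with ARNT at sites with the core letters GCGTG and switches on enzymes of xenobiotic metabolism such as CYP1A1 and CYP1B1, as well as its own repressors TIPARP and AHRR. Reactive aldehydes act on other sensors, among them the KEAP1 and NRF2 system, the heat shock factor HSF1 and the ATF4 branch of the stress response. The contrast of complete with filtered smoke therefore asks what the filtered-out fraction adds to the response to the gas phase.

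Counts assigned to genes were 55.0 M, 39.4 M and 30.5 M in complete libraries, 39.1, 54.4 and 44.6 M in filtered libraries and 28.5 to 31.1 M in clean air libraries. Complete library 3 stood apart. Reads that mapped to several places made up 12.9%, 10.2% and 31.7% of reads in complete libraries. In filtered libraries they made up 10.8%, 11.7% and 19.2% (2-sided exact permutation without regard to sample number, p = 0.7). Uniquely mapped reads outside genes made up 1.40%, 1.22% and 12.6% in complete libraries and 1.09%, 1.26% and 2.90% in filtered libraries (exact permutation p = 0.6, where 3 against 3 cannot go below 0.1). In clean air libraries the 2 shares were 9.08%, 7.69% and 8.73% (several places) and 3.51%, 5.37% and 6.41% (outside genes). The nuclear transcript MALAT1 stood at 69.7, 21.9 and 1603 CPM (read counts scaled to library size after TMM) in complete libraries and at 18.8, 20.2 and 216 CPM in filtered libraries. With clean air it stood at 61.3, 79.0 and 93.7 CPM. The third sample of both smoke groups was thus the highest of its group in each of these measures, and complete library 3 the highest of all. The labelled cell type was checked against its markers. All 15 airway and basal markers were measurable, with KRT7 at means of 4230, 4600 and 1620 CPM and the basal keratin KRT5 at 95.5, 111 and 93.4 CPM in complete, filtered and clean air cells. Further markers of this list were low. In the same order TP63 stood at 2.78, 2.36 and 7.65 CPM, CDH1 at 8.73, 8.27 and 21.4 CPM and EPCAM at 12, 12.4 and 11 CPM. TP63 and CDH1 were thus highest in clean air, unlike KRT7. The surfactant genes SFTPA1, SFTPA2 and SFTPB, the airway secretory genes SCGB3A2 and BPIFA1 and the leukocyte genes LYZ, CD3E and MS4A1 had 0 counts in all 9 libraries. Other members of these lists were detected. CD14 had means of 6.52, 6.64 and 5.46 CPM and the lipid transporter ABCA3 of 6.12, 6.04 and 5.35 CPM in complete, filtered and clean air cells, and the mucin MUC5AC reached 1.53 CPM in clean air cells. The 8 leukocyte markers summed to 3.45 to 9.47 CPM in complete, 4.97 to 9.60 CPM in filtered and 3.23 to 9.13 CPM in clean air libraries, the 9 alveolar type 2 markers to 6.90 to 8.26, 5.75 to 10.1 and 6.20 to 7.65 CPM, and the 10 secretory and ciliated markers to at most 0.405, 0.259 and 2.05 CPM. Fibroblast collagen COL1A1 was present at means of 310, 345 and 622 CPM, and the fibroblast marker THY1 at 117, 124 and 73.1 CPM. The summed level of the 8 fibroblast markers ranged from 343 to 526 CPM in complete libraries, from 457 to 555 CPM in filtered libraries and from 569 to 848 CPM in clean air libraries.

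No gene of BEAS-2B cells passed the threshold between complete and filtered smoke. Of 16356 genes tested 0 (0%) had a Benjamini-Hochberg adjusted p under 0.05 in the edgeR quasi-likelihood test, and the smallest adjusted p was 0.79. At an unadjusted p under 0.05 stood 951 genes (5.81%), of which 710 (4.34%) were higher and 241 (1.47%) lower with complete smoke, while DESeq2 gave 786 and limma-voom 811 such genes and passed 0 each. The median log2 fold change was 0.01. The 95% interval of the fold change lay within 2-fold in either direction for 12278 genes (75.1%), so that a larger difference is outside the interval for these genes, while it lies inside for the others. The interval lay wholly beyond 2-fold for 13 genes. For 852 genes (5.21%) the 3 complete libraries did not overlap the 3 filtered ones, with 474 (2.9%) higher and 378 (2.31%) lower.

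Both smokes stood far from clean air in the same fit. With complete smoke 10315 genes (63.1%) passed against clean air, 4965 (30.4%) higher and 5350 (32.7%) lower, and with filtered smoke 10948 genes (66.9%) passed, 5217 (31.9%) higher and 5731 (35%) lower. These counts share the clean air libraries. Without the sample number as block they were 6704 and 7947. Deviations of same-numbered libraries correlated at 0.643, -0.134 and 0.652 between complete smoke and clean air. Between filtered smoke and clean air they correlated at 0.581, 0.159 and 0.571. In number 2 the complete and clean air libraries thus did not deviate alike. The split depends on the scaling. With library size alone, which places all fold changes against clean air lower by 0.69 (complete) and 0.68 (filtered) on the log2 scale, it was 2379 higher and 9223 lower for complete smoke and 2558 higher and 9220 lower for filtered smoke. Complete over filtered moved by -0.01 only.

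**Figure D1:**
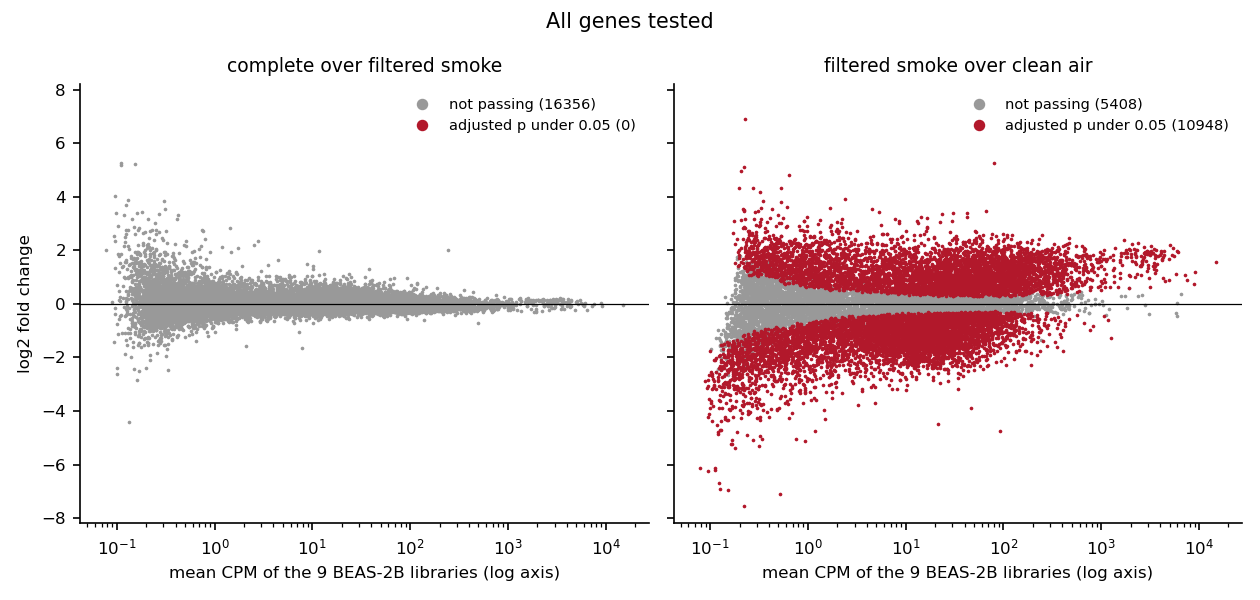
Log2 fold changes of the 16356 tested genes (vertical axis) against mean CPM of the 9 BEAS-2B libraries (log axis), for complete over filtered smoke (left) and filtered smoke over clean air (right); red points have an adjusted p under 0.05. The left panel holds 0 red points and the right panel 10948.

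The 0 calls did not hold without complete library 2. With that library left out, 63 genes passed, 60 of them higher with complete smoke and 3 lower, and 2637 genes had an unadjusted p under 0.05. Without both libraries of number 2, 9 genes passed, 7 higher and 2 lower. In the other leave-one-out fits the count was 0. Complete and filtered libraries of number 2 were the most alike, with 492 genes (3.01%) at least 2-fold apart, 186 higher and 306 lower with complete smoke. Number 1 had 875 such genes (5.35%), 391 higher and 484 lower, and number 3 had 1517 (9.27%), 1304 higher and 213 lower. Libraries of the same group could lie further apart than that. Among complete libraries 27.2% of genes were 2-fold apart between numbers 1 and 3, 17.4% between 2 and 3 and 7.7% between 1 and 2, and among filtered libraries 14.8%, 3.88% and 7.99% for the same pairs of numbers.

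The aryl hydrocarbon receptor genes come first, because their ligands are carried by the particles that the filter removes. The windows from 250 bases before to 50 bases after the transcription start of CYP1A1, TIPARP and AHR are shown so that the receptor's core letters can be seen in 2 targets and in the receptor gene (RefSeq, GRCh38.p14, 5′ to 3′ on the gene's strand; capitals mark GCGTG or its reverse complement CACGC). CYP1A1 lies at chr15:74725479-74725778 on the minus strand, TIPARP at chr3:156674340-156674639 and AHR at chr7:17298402-17298701, both on the plus strand. For TIPARP, of 3 listed starts, the one nearest the gene's annotated 5′ end was taken.
CYP1A1: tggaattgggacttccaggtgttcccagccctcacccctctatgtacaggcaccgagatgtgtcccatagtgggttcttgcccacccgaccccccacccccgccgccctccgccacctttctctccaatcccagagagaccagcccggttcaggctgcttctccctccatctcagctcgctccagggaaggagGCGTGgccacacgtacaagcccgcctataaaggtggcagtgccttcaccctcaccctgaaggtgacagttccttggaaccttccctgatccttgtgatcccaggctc
TIPARP: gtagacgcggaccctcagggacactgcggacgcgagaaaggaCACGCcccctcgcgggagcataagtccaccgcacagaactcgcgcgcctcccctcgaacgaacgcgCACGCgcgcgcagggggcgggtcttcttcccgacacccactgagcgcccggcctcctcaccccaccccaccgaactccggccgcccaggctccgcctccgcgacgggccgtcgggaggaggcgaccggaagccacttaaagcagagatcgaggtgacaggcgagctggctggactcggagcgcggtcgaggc
AHR: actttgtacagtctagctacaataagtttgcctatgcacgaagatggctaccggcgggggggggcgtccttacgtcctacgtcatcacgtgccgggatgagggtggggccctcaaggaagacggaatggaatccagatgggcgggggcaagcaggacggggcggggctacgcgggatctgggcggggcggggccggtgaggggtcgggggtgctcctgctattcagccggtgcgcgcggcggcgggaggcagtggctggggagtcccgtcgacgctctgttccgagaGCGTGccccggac
The letters occur once in the CYP1A1 window, 2 times in that of TIPARP and once in that of AHR. On either strand they are found in 36.5% of the 35116 promoter windows of the same length, so a match is common and marks no site by itself.

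CYP1A1, the receptor's classical target, stayed at a low level with both smokes. It stood at 4.56, 3.85 and 4.54 CPM in complete libraries, at 3.78, 3.99 and 3.84 CPM in filtered libraries and at 13.5, 10.1 and 10.8 CPM in clean air libraries. Complete and filtered libraries overlapped, and all 6 lay under all 3 clean air libraries. The log2 fold change of complete over filtered smoke was 0.15 ± 0.17 (SE, n = 3 each; edgeR adjusted p = 0.86), with a 95% interval from -0.23 to 0.52. Against clean air CYP1A1 fell by 1.41 with complete smoke and by 1.55 with filtered smoke on the log2 scale (adjusted p = 4.3e-05 and 2.2e-05). A doubling of CYP1A1 by the filtered-out fraction is therefore outside the interval of this fit. In the joint fit with A549 cells the same contrast was 0.13 ± 0.80, an error too wide to place a doubling outside.

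CYP1B1, the related oxygenase (ENSG00000138061, GRCh38 chromosome 2, 38066973 to 38109902), had higher values in each complete library than in the filtered library of the same number. It stood at 91.5, 96.4 and 149 CPM in complete libraries, at 50.5, 75.4 and 95.5 CPM in filtered libraries and at 136, 310 and 295 CPM in clean air libraries. The complete and filtered groups overlapped narrowly, with complete library 1 under filtered library 3. The log2 fold change was 0.64 ± 0.18 (interval 0.23 to 1.04, adjusted p = 0.79), and it was positive in all 3 numbers. TIPARP, the receptor's ADP-ribosylating repressor, stood at 67.6, 64.8 and 76.0 CPM with complete smoke, against 41.4, 58.8 and 60.7 CPM with filtered smoke and 76.3, 106 and 88.0 CPM with clean air. The complete libraries all lay above the filtered ones. Its log2 fold change was 0.39 ± 0.15 (interval 0.07 to 0.71, adjusted p = 0.79). AHR, the receptor itself (chromosome 7, 16916359 to 17346152), stood at 25.1, 17.2 and 41.1 CPM with complete smoke, at 14.4, 16.8 and 18.5 CPM with filtered smoke and at 62.3, 91.8 and 92.6 CPM with clean air. Complete library 2 lay among the filtered libraries, and the fold change was 0.70 ± 0.22 (interval 0.22 to 1.18, adjusted p = 0.79). AHR passed without complete library 2 (1.02, adjusted p = 0.033). AHRR, the receptor's repressor, was near 0.5 CPM, with 0.481, 0.503 and 0.921 CPM in complete libraries and 0.408, 0.418 and 0.353 CPM in filtered libraries, a fold change of 0.65 ± 0.36 (adjusted p = 0.79). Its partner ARNT stood at -0.21 ± 0.13.

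Of the 24 receptor targets listed 22 were tested and 0 passed. The list median was 0.08 on the log2 scale against 0.01 for all genes. 4 targets (18.2% of those tested) had an unadjusted p under 0.05, all higher with complete smoke, against 5.81% of all genes; these were CYP1B1, TIPARP, SERPINB2 and EREG. SERPINB2, a protease inhibitor, stood at 374, 283 and 293 CPM with complete smoke, against 269, 248 and 232 CPM with filtered smoke and 156, 138 and 126 CPM with clean air (0.34 ± 0.13), and its complete libraries all lay above the filtered ones. EREG, a growth factor for the EGF receptor, had a fold change of 0.56 ± 0.24 with overlapping groups. NQO1, shared with the NRF2 system, stood at 381, 387 and 286 CPM with complete and at 341, 364 and 332 CPM with filtered smoke (0.01 ± 0.16, interval -0.35 to 0.36). For 18 of the 22 targets the interval lay within 2-fold.

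**Figure D2:**
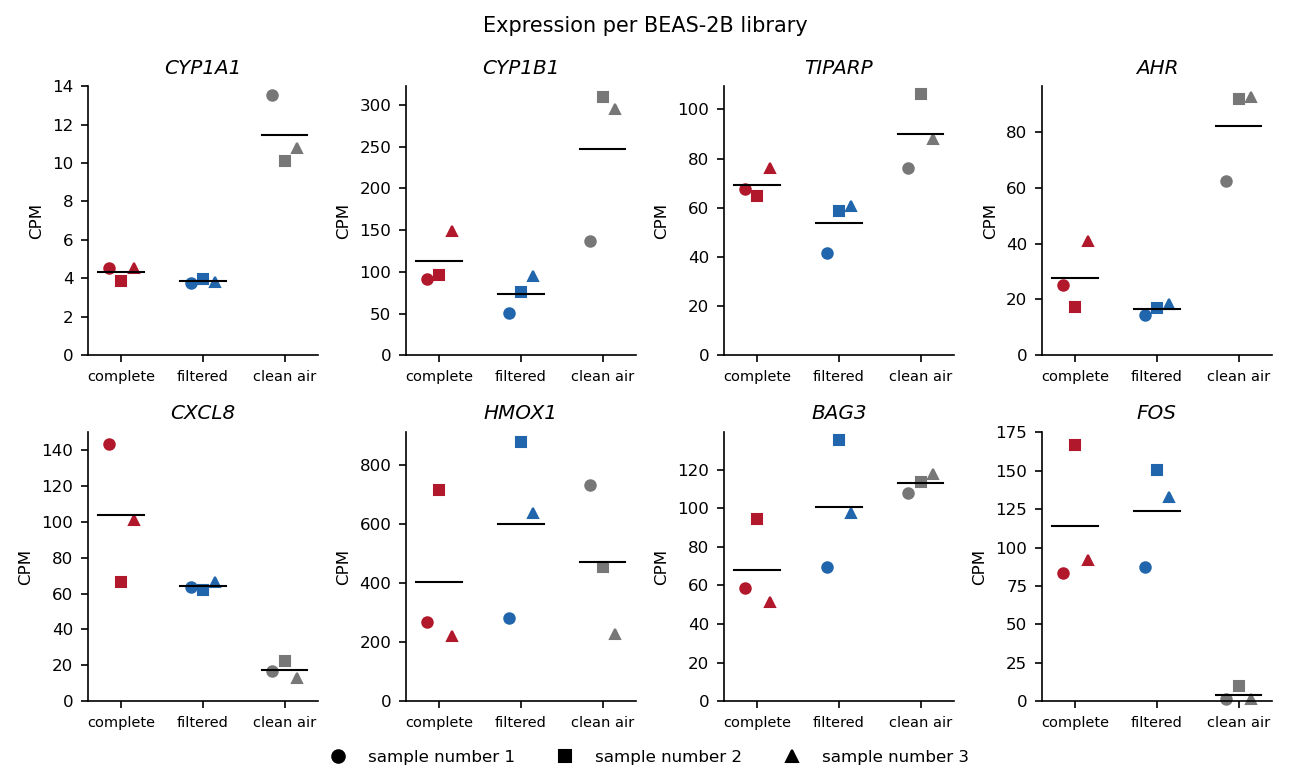
CPM (vertical axes, from 0) of 8 genes in each BEAS-2B library of the complete, filtered and clean air groups; symbols give the sample number and lines the group means. CYP1A1 lies under 5 CPM in all complete and filtered libraries and above 10 CPM in clean air, and FOS lies under 11 CPM in clean air and above 80 CPM with both smokes.

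Cytokines regulated by NF-kB were high with both smokes. CXCL8, the neutrophil chemoattractant IL-8, stood at 144, 66.3 and 101 CPM in complete libraries, at 63.5, 62.2 and 66.6 CPM in filtered libraries and at 17.0, 22.2 and 12.7 CPM in clean air libraries. Complete libraries 1 and 3 were above every filtered library, while library 2 was among them. The fold change was 0.66 ± 0.25 (interval 0.11 to 1.21, adjusted p = 0.79), the highest of the 32 single genes chosen for description. CCL2, the monocyte chemoattractant, stood at 116, 47.6 and 46.6 CPM with complete, at 79.8, 39.2 and 33.0 CPM with filtered smoke and at 14.8, 8.24 and 6.37 CPM with clean air. Each number was higher with complete smoke, at 0.44 ± 0.13 (adjusted p = 0.79), and the groups overlapped. IL6 stood at 57.2, 26.2 and 24.7 CPM with complete and at 30.3, 28.7 and 24.8 CPM with filtered smoke (0.26 ± 0.23), against 4.96, 3.92 and 1.84 CPM with clean air. Only complete library 1 left the range of the filtered libraries upwards. IL1B stood at 0.18 ± 0.14 (interval -0.13 to 0.48). Of the 27 list members tested 0 passed and the median was 0.07. A positive fold change was found for 18 of them, against 8418 of all 16356 genes, and an unadjusted p under 0.05 for 3 (11.1%), against 5.81% of all genes. Against clean air 21 of the 27 rose and 2 fell with either smoke, where 30.4% of all genes rose and 32.7% fell with complete smoke and 31.9% rose and 35% fell with filtered smoke. The list medians were 1.64 with complete and 1.53 with filtered smoke.

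The stress genes had mostly lower values with complete smoke, again without a call, and lower values were not particular to them. HMOX1, which degrades haem, stood at 269, 717 and 222 CPM in complete libraries, at 281, 879 and 636 CPM in filtered libraries and at 731, 454 and 227 CPM in clean air libraries. The spread over numbers within each group was wider than the difference between the smokes, which was -0.71 ± 0.44 (interval -1.69 to 0.26, adjusted p = 0.79), and most of it lay in number 3. BAG3, a cochaperone under HSF1, stood at 58.9, 94.2 and 51.6 CPM with complete, at 69.6, 135 and 97.5 CPM with filtered smoke and at 108, 114 and 118 CPM with clean air. It was lower with complete smoke in each number (-0.56 ± 0.18, interval -0.97 to -0.15, adjusted p = 0.79). DNAJB1, a chaperone partner of HSP70, stood at 279, 487 and 291 CPM with complete and at 279, 586 and 477 CPM with filtered smoke, against 263, 177 and 180 CPM with clean air (-0.35 ± 0.27). The inducible chaperone HSPA6 ranged from 9.57 to 84.1 CPM with complete and from 10.8 to 91.4 CPM with filtered smoke, with number 2 the highest in both groups, and its interval ran from -2.09 to 1.27. These data cannot place HSPA6 to within 2-fold. GDF15, a secreted stress signal, stood at 4.03, 3.25 and 1.91 CPM with complete, at 5.24, 4.91 and 2.71 CPM with filtered smoke and at 1.38, 0.719 and 0.577 CPM with clean air (-0.50 ± 0.20, adjusted p = 0.79).

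By list, 6 of 23 heat shock genes, 8 of 35 NRF2 and glutathione genes, 5 of 33 ATF4 genes and 5 of 35 immediate early genes had a positive fold change, with medians of -0.13, -0.17, -0.16 and -0.20, and 0 passed in any of them. Over all genes 8418 of 16356 were positive, with a median of 0.01. The lower values of these lists came mainly from number 3. In number 3 the medians of complete minus filtered were -0.30, -0.32, -0.39 and -0.41 on the log2 scale in the same order. In number 2 they were -0.10, -0.07, -0.04 and -0.09, and in number 1 they were 0.07, 0.00, 0.02 and -0.14. Over all genes the medians were 0.02, -0.01 and 0.02 in numbers 3, 2 and 1. Other lists were lower in number 3 as well, with 21 of the 28 list medians below 0. FOS, an immediate early transcription factor, stood at 83.3, 167 and 92.1 CPM with complete and at 87.4, 150 and 133 CPM with filtered smoke, against 1.49, 10.1 and 1.2 CPM with clean air (-0.20 ± 0.37). Its rise over clean air was 5.08 ± 0.46 with complete and 5.28 ± 0.46 with filtered smoke on the log2 scale. IER3, an immediate early survival gene, had no overlap, at 11.5, 13.4 and 10.6 CPM with complete and 15.8, 17.7 and 15.1 CPM with filtered smoke (-0.46 ± 0.18, adjusted p = 0.79). Of the NRF2 targets, the glutathione synthesis subunit GCLM had the interval -0.37 to 0.18 and the thioredoxin reductase TXNRD1 -0.61 to 0.37. The cystine transporter SLC7A11 stood at 2.18, 9.85 and 9.21 CPM with complete and at 2.04, 8.90 and 16.7 CPM with filtered smoke, so that only number 3 differed by more than 1.5-fold.

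**Figure D3:**
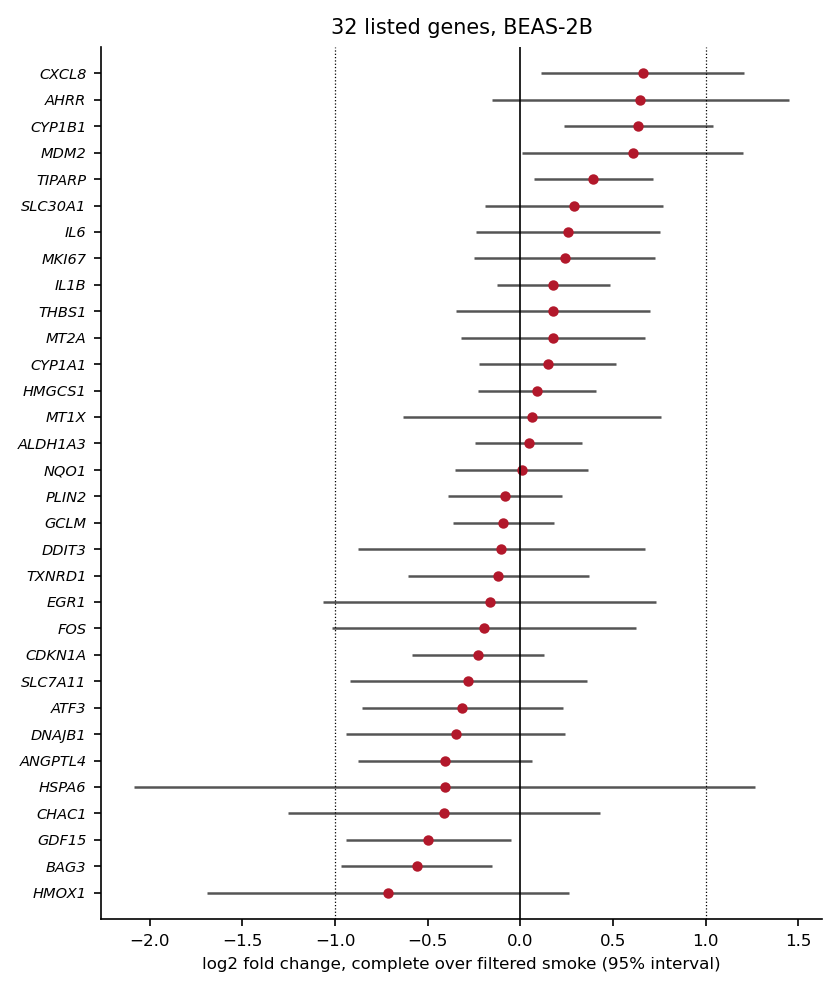
Log2 fold change of complete over filtered smoke (points) with its 95% interval (lines) for 32 genes chosen for description; dotted lines mark 2-fold in either direction. The fold changes run from -0.71 (HMOX1) to 0.66 (CXCL8), 16 are positive and 16 negative, and 23 intervals lie within the dotted lines.

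Wood ash carries zinc and other metals, and metallothioneins bind such metals. MT2A stood at 2327, 1718 and 1357 CPM with complete, at 1791, 1474 and 1387 CPM with filtered smoke and at 1168, 444 and 420 CPM with clean air. The complete and filtered ranges overlapped, at 0.18 ± 0.22 (interval -0.32 to 0.67). MT1X stood at 0.06 ± 0.32 and the zinc exporter SLC30A1 at 0.29 ± 0.22. Metallothionein genes are close copies of each other, so reads that fit several were not counted here. SLC39A10, a zinc importer, stood at 3.75, 3.79 and 10.8 CPM with complete and at 1.84, 2.94 and 4.76 CPM with filtered smoke, against 5.10, 9.78 and 10.1 CPM with clean air. It was higher in each number (0.89 ± 0.25, interval 0.34 to 1.44, adjusted p = 0.79). Of 11 metal genes tested 0 passed and the median was 0.06. Genes of aldehyde and carbonyl metabolism had a median of -0.03, with 13 of 35 positive and 0 at an unadjusted p under 0.05. The aldehyde dehydrogenase ALDH1A3 stood at 121, 124 and 115 CPM with complete and at 103, 126 and 122 CPM with filtered smoke (0.05 ± 0.13, interval -0.24 to 0.33).

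The protein-coding genes of lowest p did not pass. They were taken among genes with a mean of at least 5 CPM and 1 sign over the 3 numbers, a choice that favours groups without overlap. The 12 that were higher with complete smoke ranged from 0.52 to 1.31 on the log2 scale, and for 8 of them the groups did not overlap, against 2.9% of all genes in that direction. TMED7, a cargo receptor of the early secretory pathway whose locus also has a read-through transcript, stood at 28.3, 12.4 and 49.8 CPM in complete libraries, at 11.3, 10.2 and 12.1 CPM in filtered libraries and at 48.8, 83.3 and 86.8 CPM in clean air libraries. Its fold change was 1.31 ± 0.33 (adjusted p = 0.79), with complete library 2 closest to the filtered ones. TNFAIP8, which has been described as a regulator of cell survival, stood at 25.4, 17.2 and 22.2 CPM with complete, at 15.1, 12.1 and 13.7 CPM with filtered smoke and at 25.6, 26.5 and 26.3 CPM with clean air (0.66 ± 0.15, adjusted p = 0.79). SRP9 and SRP19, proteins of the signal recognition particle, stood at 0.77 ± 0.19 and 0.64 ± 0.15. SDHD, a subunit of succinate dehydrogenase, stood at 85.2, 65.1 and 94.8 CPM with complete, against 60.1, 53.6 and 53.4 CPM with filtered smoke and 46.0, 41.0 and 44.9 CPM with clean air (0.54 ± 0.13). NDUFB5 of respiratory complex I stood at 0.61 ± 0.15, the mitochondrial protein HIGD1A at 0.52 ± 0.13, and GET1, part of the insertion machinery for tail-anchored proteins, at 0.75 ± 0.20. The others were UBE2W, SCOC, EEF1E1 and FAM200B. For 4 of the 12 genes the complete mean lay between the filtered and the clean air means, as for 4 of the 12 lower genes described next. The share over all genes was not counted.

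The 12 lower genes ranged from -0.70 to -0.43, with no overlap for 3, against 2.31% of all genes in that direction. TGFB1, the growth factor TGF-beta 1, stood at 22.8, 32.4 and 22.1 CPM in complete libraries, at 36.7, 40.1 and 31.4 CPM in filtered libraries and at 22.8, 26.8 and 22.2 CPM in clean air libraries. Each complete library was below its filtered partner (-0.50 ± 0.13, adjusted p = 0.79), and the groups overlapped. COL18A1, a basement membrane collagen, stood at -0.45 ± 0.14, PRKACA, a catalytic subunit of protein kinase A, at -0.62 ± 0.19, and the corepressor HR, with no overlap, at -0.57 ± 0.17. The others were KLHL21, RAVER1, ZNF213, SLC43A2, TP53INP2, UNC93B1, ZSCAN18 and ARID5A.

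Across all 28 lists the medians of complete over filtered smoke ran from -0.20 (immediate early genes) to 0.11 (cytosolic ribosomal proteins). Ribosomal proteins were positive in 41 of 47 genes, and the interval lay within 2-fold for all 47. Their medians against clean air were 1.99 with complete and 1.88 with filtered smoke, with 46 of 47 risen in each, against 30.4% and 31.9% of all genes. Proteasome subunits were positive in 24 of 33 genes with a median of 0.06. Mitosis genes had a median of 0.04 and DNA replication genes of -0.05, and the proliferation marker MKI67 stood at 113, 112 and 239 CPM with complete and at 119, 113 and 138 CPM with filtered smoke, against 273, 507 and 521 CPM with clean air (0.24 ± 0.22). In interferon-stimulated genes 4 of 25 were positive, with a median of -0.18. By sample number the medians of the 28 lists ran from -0.14 to 0.30 in number 1 with 6 below 0, from -0.22 to 0.22 in number 2 with 17 below 0, and from -0.57 to 0.31 in number 3 with 21 below 0.

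**Figure D4:**
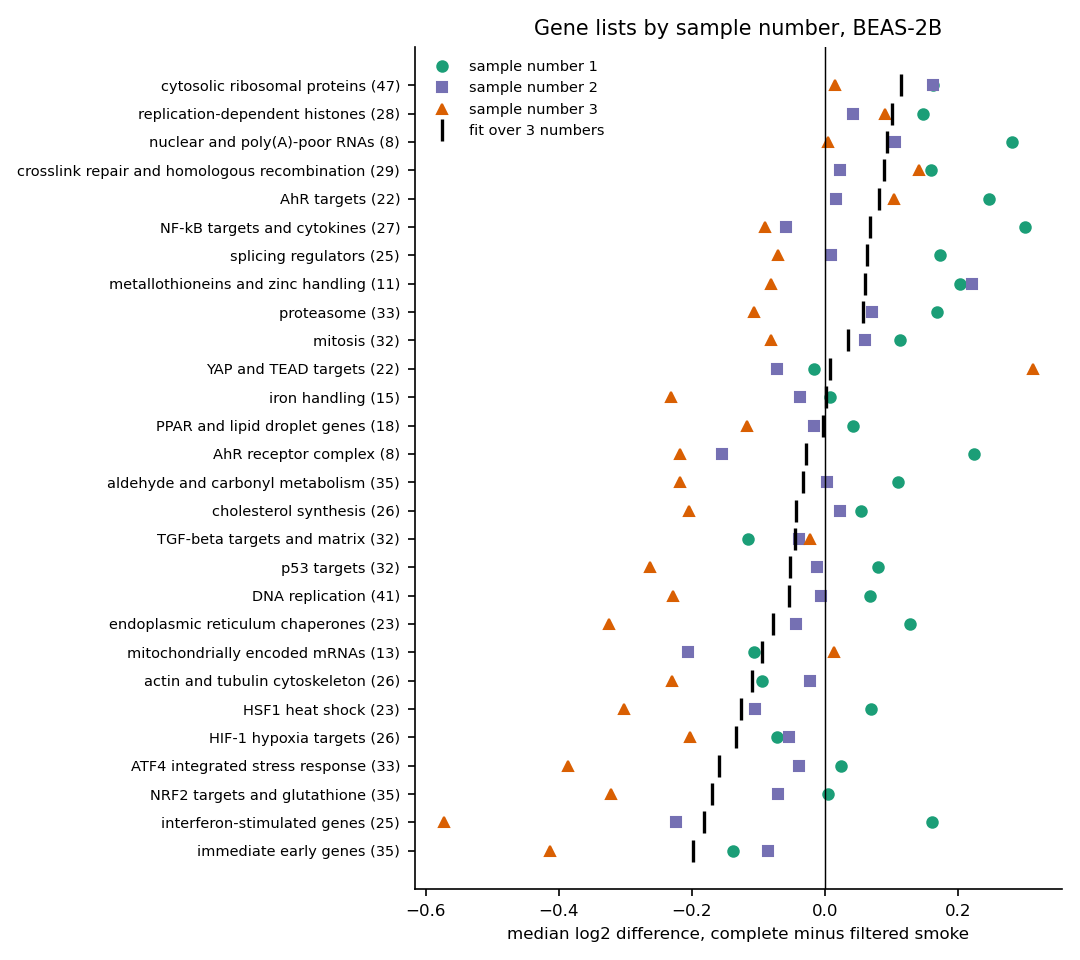
Median log2 difference of complete minus filtered smoke (horizontal axis) of the 28 gene lists, with the number of genes tested in parentheses, in each sample number (symbols) and in the fit over the 3 numbers (black bars). The bars lie between -0.20 and 0.11, and number 3 reaches -0.57 in the interferon-stimulated genes.

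The differences of number 3 went with gene span. Protein-coding genes with a mean of at least 5 CPM over the 9 BEAS-2B libraries were divided into 4 sets of 2339 by the length of their locus. The median spans were 7481, 22261, 49140 and 133608 bases. In number 3 the median log2 differences of complete minus filtered were -0.25, -0.15, -0.02 and 0.27 from the shortest to the longest set. They were 0.02, 0.02, 0.05 and 0.06 in number 1 and 0.02, -0.01, -0.01 and -0.02 in number 2. Against clean air both smokes had a gradient opposite to that of number 3. In the same order the medians were 0.82, 0.13, -0.27 and -0.61 with complete smoke. With filtered smoke they were 0.91, 0.20, -0.24 and -0.71. ATM, the DNA damage kinase encoded by a long gene, stood at 6.79, 9.38 and 35.7 CPM with complete and at 4.56, 8.44 and 14.8 CPM with filtered smoke (0.73 ± 0.26). The 8 tested nuclear and poly(A)-poor RNAs had medians of 0.28, 0.11 and 0.00 in numbers 1, 2 and 3, and the 13 mitochondrially encoded mRNAs of -0.11, -0.21 and 0.01, so in number 3 both list medians lay near 0. Some members differed more. KCNQ1OT1, a nuclear antisense RNA, stood at 1.82, 1.83 and 50.1 CPM with complete and at 0.885, 1.90 and 10.1 CPM with filtered smoke. MT-ND6, the mitochondrial gene on the light strand, stood at 8.44, 8.76 and 61.4 CPM with complete and at 7.05, 6.75 and 17.1 CPM with filtered smoke, against 215, 211 and 297 CPM with clean air. MALAT1, KCNQ1OT1 and MT-ND6 were highest among the exposed libraries in complete library 3, as was the share of reads outside genes, and the part of that library's composition in the gene values was not tested. Without complete library 3 the count of passing genes was again 0, with 370 genes at an unadjusted p under 0.05.

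The test between lines asked whether complete and filtered smoke differed otherwise in BEAS-2B than in A549 cells. In a joint edgeR fit of all 18 libraries 0 of 17703 genes (0%) passed for BEAS-2B minus A549, with a smallest adjusted p of 0.49 and 660 genes (3.73%) at an unadjusted p under 0.05. CYP1B1 had the difference -2.22 ± 0.41 on the log2 scale (adjusted p = 0.60), made of 0.62 ± 0.29 in BEAS-2B and 2.84 ± 0.31 in A549 cells. The A549 libraries stood at 365, 349 and 990 CPM with complete and at 56.4, 63.5 and 97.6 CPM with filtered smoke, without overlap. CYP1A1 had the difference -4.51 ± 1.19 (adjusted p = 1), made of 0.13 ± 0.80 and 4.64 ± 0.90, and stood at 35.2, 45.0 and 117 CPM with complete and at 1.72, 3.25 and 2.46 CPM with filtered smoke in A549 cells. TIPARP had -1.08 ± 0.32 (adjusted p = 1), made of 0.38 ± 0.22 and 1.46 ± 0.23. AHR had 0.45 ± 0.27 (adjusted p = 1). CYP1A1 and CYP1B1 were several times higher with complete than with filtered smoke in each A549 number. Within A549 cells CYP1B1 passed (edgeR adjusted p = 0.0057) and CYP1A1 did not (adjusted p = 0.84). In the fit of BEAS-2B cells alone the 95% interval of CYP1A1 lay within 1.5-fold, while its standard error in the joint fit was 0.80. The difference between the lines did not pass over all genes. In A549 cells 4 genes (0.0226%) passed in the joint fit, all higher with complete smoke. These were CYP1B1, TIPARP, the cytokine IL24 and the proapoptotic BMF. IL24 and BMF lie outside the rule for named genes and were chosen after their values were seen; IL24 had the line difference -2.23 ± 0.40 (adjusted p = 0.49), with 0.03 ± 0.16 in BEAS-2B cells, and BMF had -2.11 ± 0.40 (adjusted p = 0.60). Lines differed in seeding number and growth medium as well, so the line and these conditions cannot be told apart.

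**Figure D5:**
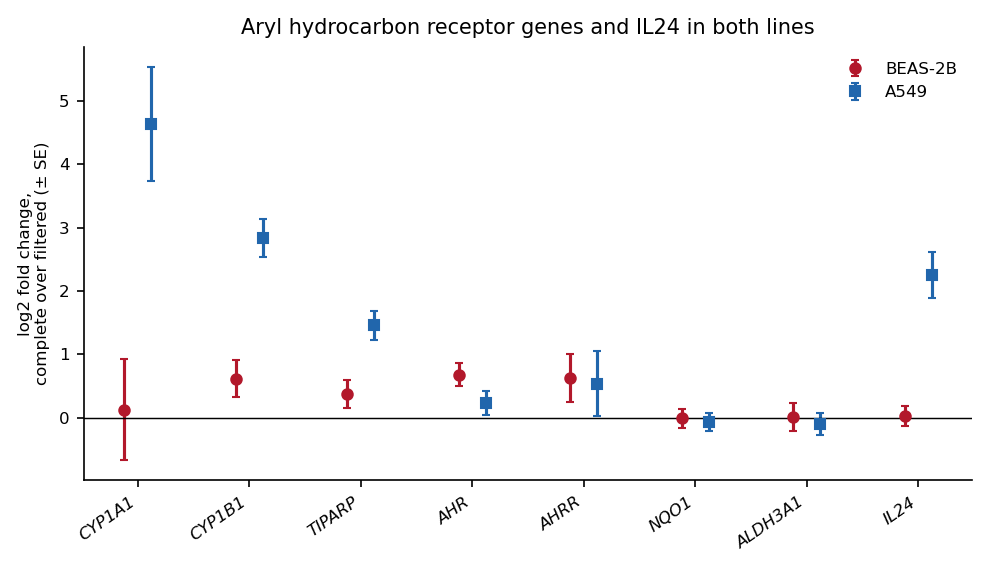
Log2 fold change of complete over filtered smoke ± SE (vertical axis) in BEAS-2B (circles, left of each pair) and A549 (squares) from the joint fit, for 7 genes of the receptor lists and IL24. CYP1B1 stands at 0.62 in BEAS-2B and at 2.84 in A549 cells, whereas NQO1 lies near 0 in both.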

How the data were processed

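mRNA libraries (TruSeq mRNA kit, RNA by TRIzol, per the labels' protocols) were aligned with STAR 2.7.10b to GRCh38, per the submitters' processing notes. The authors deposited whole-number read counts per gene, not normalized, with a column per strand setting and 4 summary lines, which were left out of gene totals. The second-strand column (column 4) was used; its counts exceeded those of the opposite strand by 11.7 to 17.1 times. Of 62649 gene IDs 62625 had a symbol, and 58225 were in GENCODE 29, the source of positions and biotypes.

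After filterByExpr and TMM scaling, quasi-likelihood tests (edgeR 4.0.16, R 4.3.3, robust) used the 9 BEAS-2B libraries with the sample number as block, and all 18 libraries for the line difference; Benjamini-Hochberg adjusted p under 0.05 passed. Scripts were tested on simulated data. Standard errors came from the test statistic and intervals (95%) from the t quantile of the fit's total degrees of freedom (median 10.8). The biological coefficient of variation was 0.169, and log values used a prior count of 2. Totals were 28.5 to 55.0 M counts per BEAS-2B library; for genes under about 1 CPM counting error adds to the spread. Deviations of complete and filtered libraries from their group means correlated at 0.647, 0.293 and 0.666 for numbers 1 to 3. Same-numbered libraries thus deviated alike, but with 3 libraries per group this cannot establish that the samples were pairs. The labels give only shared numbers. No 2 libraries held the same counts.

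Named genes were 32 chosen single genes, the 12 highest and 12 lowest passing protein-coding genes of at least 5 mean CPM with at least 1 count in every library and 1 sign over the numbers (here, with 0 passing, those of lowest p), and per list up to 4 passing members or else the 2 of lowest p, 99 genes in all. The comparison, genes and lists were chosen with earlier results of these data known. Library shares were compared by exact permutation of the complete and filtered libraries without regard to sample number (scipy 1.17.1). Alternatives were other scalings, filters, fits without the block, only the 6 libraries compared, counts that ignore strand, DESeq2 1.42.0 and limma-voom (limma 3.58.1). Each library or number was also left out, as were complete library 3 and clean air library 1 together.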

Additional observations from a re-analysis of the deposited data

How the results depend on the processing

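The count of 0 genes for complete over filtered smoke was found in 22 of 25 settings, among them 3 other scalings, a stricter low-count filter, DESeq2, limma-voom, counts that ignore strand and the fit without the replicate block (0 genes passing, 222 at an unadjusted p under 0.05). The 25 include a minimum of 2-fold, which selects from the 0 genes of the main fit and could only give 0. The count became 169 without a low-count filter (159 higher, 10 lower, of 33856 genes), 63 without complete library 2 and 9 without number 2, and leaving out libraries or numbers gave 0 to 63. The cause was not tested. The 9 genes were PCLAF, RNU4-2, MIR1244-2, TMED7, RNU4-1, ENSG00000279289, ZFHX3, MATR3 and UHMK1. The count of genes with an interval within 2-fold ran from 9532 of 16356 (no replicate block) to 13143 of 33856 (no low-count filter). It was 12278 of 16356 in the main fit, so the highest count is not the highest share. Against clean air, complete smoke gave 5958 genes at a minimum of 2-fold and 6704 without the replicate block. Filtered smoke gave 6738 and 7947 in the same settings. With a single library left out, counts ran from 8918 to 10388 for complete and from 9018 to 11362 for filtered smoke. With a number left out they ran from 8087 to 9236 and from 9124 to 10190. Without complete library 3 and clean air library 1 together they were 11111 and 12071. The line difference gave 0 genes in 14 of 16 settings, 1 (RPL41P1) without A549 filtered library 3 and 2 (PCLAF and MIR1244-2) without BEAS-2B complete library 2, a leave-one-out range of 0 to 2. Over the 99 named genes and all settings, 2296 values kept their sign and stayed outside the threshold, 44 changed sign without passing, 32 passed with the same sign, 20 of them without the low-count filter, and 0 reversed as a call. Where a single library is left out of a group, the remaining ones are assumed to vary like the other groups. With 3 numbers and a coefficient of variation of 0.169, the intervals of the genes not counted as within 2-fold reach beyond 2-fold. A difference above 2-fold cannot be placed outside these intervals.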

Other observations

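PCLAF, a PCNA-associated factor of replicating cells, MIR1244-2 and BMI1 lie outside the rule for named genes and were chosen after their values were seen. PCLAF stood at 22.1, 3.05 and 21.5 CPM in complete libraries, at 3.95, 3.43 and 2.69 CPM in filtered libraries and at 20.1, 14.97 and 14.7 CPM in clean air libraries. Complete libraries 1 and 3 were thus at or above the clean air level, and complete library 2 was at the filtered level. Over the 3 numbers the log2 fold change of complete over filtered smoke was 1.996 ± 0.49 (edgeR adjusted p = 0.79), and without complete library 2 it was 2.69 ± 0.19 (adjusted p = 0.000116). MIR1244-2 also had complete library 2 at the filtered level and complete libraries 1 and 3 near the clean air level. It stood at 4.71, 0.533 and 5.13 CPM with complete and at 0.749, 0.606 and 0.424 CPM with filtered smoke. With clean air it stood at 5.01, 3.90 and 4.13 CPM. MIR1244-2 is annotated as a microRNA gene, while the libraries were of mRNA. Whether its reads come from the small RNA itself was not tested. BMI1, a polycomb repressor, stood at 10.4, 6.51 and 19.7 CPM with complete, at 5.41, 6.41 and 7.37 CPM with filtered smoke and at 16.4, 22.0 and 23.6 CPM with clean air.

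The small nuclear RNA genes RNU4-2 and RNU4-1, also chosen after their values were seen, ran the other way. RNU4-2 stood at 3.06, 7.52 and 4.31 CPM in complete libraries, at 21.4, 9.59 and 18.8 CPM in filtered libraries and at 2.06, 0.872 and 2.65 CPM in clean air libraries, a log2 fold change of -1.65 ± 0.43 (edgeR adjusted p = 0.79) and of -2.51 ± 0.22 without complete library 2 (adjusted p = 0.000655). RNU4-1 stood at 1.11, 2.16 and 0.789 CPM with complete, at 5.24, 2.38 and 5.23 CPM with filtered smoke and at 0.648, 0.327 and 0.923 CPM with clean air. Both are near-identical copies, so the split of reads between them is uncertain. The libraries were of mRNA, and whether these reads come from the small nuclear RNAs themselves was not tested. For these 5 genes, in numbers 1 and 3 complete lay nearer to clean air than filtered smoke did, and in number 2 the complete and filtered libraries were close. All 5 passed without complete library 2, a choice that favours genes where that library lies near the filtered ones. What sets number 2 apart was not tested.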
